A study of Mus musculus with 4 samples.

Results

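Tumour cells carry surface and secreted ligands that T cells, NK cells and myeloid cells read before they kill, and 10 such immune checkpoint and killer-receptor ligand genes were followed in MC38 cells with and without a Cbfb-targeting guide. The genes were Cd274, Pdcd1lg2, Cd276, Lgals9, Cd47, Nt5e, Pvr, Nectin2, Ulbp1 and H2-T23. They were chosen by symbol from the 26322 genes of the expression table, and all 10 were listed there. MC38 is a mouse colon carcinoma line. Cells were electroporated with Cas9 complexed to a guide RNA, either non-targeting (labelled WT and called sgNT here) or directed at Cbfb (labelled CbfbKO and called sgCbfb here), and the cells were collected at least 1 week later. The study asked how losing CBFβ alters the response of a tumour cell to attack by T cells. Cbfb encodes CBFβ, the non-DNA-binding partner of the RUNX transcription factors. The protein was checked by western blot, 3 replicates were collected per group, and 2 per group with RNA of sufficient quality were sequenced. Both groups therefore had been through the same electroporation with Cas9, and the sources used here do not say whether the sgCbfb cells were a pool or a clone, or whether replicates came from separate cultures, so p-values describe the spread between these libraries, which may be technical. No immune cells, cytokine or other treatment is named for the sequenced samples.

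RNA was read by 3′ mRNA sequencing, which counts the end of each transcript, so reads do not scale with transcript length. The libraries held between 3189035 and 3907936 counted reads, so that 1 read was worth 0.256 to 0.314 CPM, the unit in which reads are scaled to the total of a library. Cbfb had 295 and 285 reads in the sgNT libraries and 125 in each sgCbfb library, a log2 fold change of -1.27 (SE 0.12, adjusted p = 1.76e-07, limma). In such bulk samples fewer expressing cells and less RNA per cell cannot be told apart, and mRNA is not a measure of protein. Of 9 immune cell markers, 8 were at 0 reads in every library and the other, Ptprc, had 1 read in an sgNT library, so that the summed reads were 0 to 1 per sgNT library and 0 per sgCbfb library. The line is labelled as colorectal cancer, but the epithelial markers of that tissue were near absent. Of Epcam, Cdh1, Krt8, Krt18, Krt19, Krt20, Cdx2 and Vil1 together there were 6 reads in each sgNT library and 5 to 7 in each sgCbfb library, with Krt18 and Vil1 at 0 throughout.

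As background, a checkpoint ligand is a protein on a target cell whose receptor on a lymphocyte or macrophage lowers or raises the attack. PD-L1, encoded by Cd274, and PD-L2, encoded by Pdcd1lg2, bind PD-1 on T cells. CD47 binds SIRPα on macrophages and restrains phagocytosis. PVR and Nectin-2 are shared ligands of the activating receptor DNAM-1 and of inhibitory receptors of the same family, ULBP1 is a ligand of the activating receptor NKG2D, and H2-T23 encodes Qa-1, which presents peptides to the inhibitory receptor NKG2A on NK cells and CD8+ T cells. Several of these genes, Cd274 and the class I genes among them, are known to respond to interferon-gamma through JAK, STAT and IRF factors.

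Because the edited gene acts with RUNX factors, the sequence before each ligand gene's start was searched for a RUNX core and for interferon-type letters. RefSeq starts on GRCm38.p6 were matched for 9 of the 10 genes, all but Pvr, and the 250 bases before each start were read. The RUNX core TGTGGT, on either strand, was in 14.0% of 32851 such windows of the genome and in 0 of the 9 ligand genes. The STAT letters TTCNNNGAA were in 7.02% of all windows and likewise in 0 of the 9. The IRF letters, GAAA followed by any 2 bases and GAAA again, were in 2.98% of all windows and in 2 of the 9 ligand genes, Lgals9 and H2-T23. These matches are descriptions of letters in a window and not binding sites. The matches in Lgals9 and H2-T23 are shown with 10 bases on each side and read as the reverse complement of the letters as spelled above, and the whole window of Nectin2 is shown because Nectin2 came closest to the threshold of the test. Capitals mark the IRF letters, and the Nectin2 window has none.
Lgals9: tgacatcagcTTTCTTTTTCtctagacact
H2-T23: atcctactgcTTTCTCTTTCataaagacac
Nectin2: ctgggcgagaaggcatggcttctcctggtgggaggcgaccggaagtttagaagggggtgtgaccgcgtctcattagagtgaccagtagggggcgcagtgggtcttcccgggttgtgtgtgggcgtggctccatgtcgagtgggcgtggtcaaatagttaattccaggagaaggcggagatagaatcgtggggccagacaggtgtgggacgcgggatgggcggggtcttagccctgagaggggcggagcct

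All 3 are written 5′ to 3′ along the gene, which lies on the minus strand in each case. The Lgals9 stretch is chr11:78984960-78984989, its letters end 45 bases before the RefSeq start, and no GENCODE M21 exon covers it. The H2-T23 stretch is chr17:36032806-36032835, and its letters end 114 bases before the RefSeq start but within the first exon of a longer GENCODE model of the same gene. The Nectin2 window is chr7:19749574-19749823 and lies inside the longer GENCODE gene model, outside every annotated exon. It is richer in G and C (62.0%) than the median window (52.4%), whereas the H2-T23 window is poorer (42.4%). The windows of Cd276 (77.6%), Nt5e (72.0%) and Cd47 (73.2% in the first of its 2 listed starts) were among the G and C rich ones, all above the upper quartile of 61.2%.

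None of the 8 ligand genes that could be tested passed the threshold in sgCbfb cells. Most of them were nonetheless read slightly more often in both sgCbfb libraries than in both sgNT libraries, with the low-count genes Ulbp1 and Cd276 showing the widest gaps and Nectin2 the smallest p-value. Pdcd1lg2 and Nt5e had no read in any library. Across all 12207 tested genes, 1.57% were higher and 1.25% lower in sgCbfb cells at an adjusted p under 0.05 (limma on the deposited log2 CPM, two-sided, Benjamini-Hochberg adjustment), against 0 of 8 ligand genes in each direction. At an unadjusted p under 0.05, 4 ligand genes were higher (Nectin2, Cd276, Pvr and Ulbp1) and 0 lower, beside 9.67% and 5.23% of all tested genes. Voom on the reads, with library totals, placed 1 ligand gene past the threshold, Nectin2 (adjusted p = 0.0493), and with median scaling it placed 0 there (Nectin2 at 0.0735).

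Both sgCbfb libraries lay above both sgNT libraries for 7 of the 8 tested ligand genes, beside 27.4% of all tested genes, and both lay below for 0 of 8, beside 16.8%. The median log2 fold change was 0.42 over the 8 genes and 0.039 over all tested genes, and without Ulbp1, the gene with the fewest sgNT reads, it was 0.39. Genes were tested where the deposited value was at least 0 on the log2 CPM scale in at least 2 libraries. Every tested ligand gene reached this in at least 1 library of each group. The 8 genes were not tested as a set, and the sgCbfb libraries and sgNT libraries are the same 4 for every gene.

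**Figure D1:**
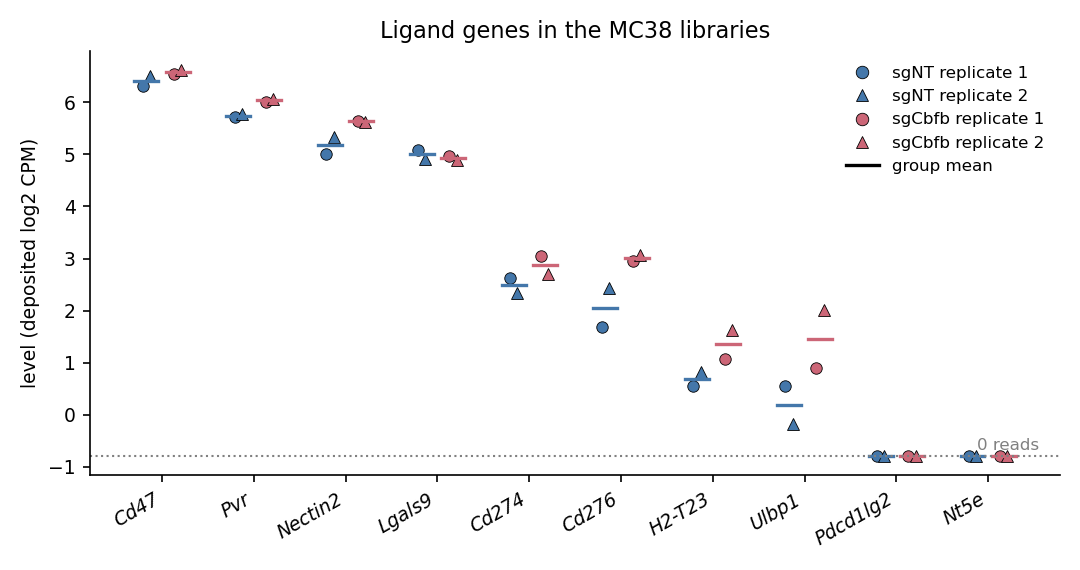
Level of each ligand gene in each library, as deposited log2 CPM (vertical axis), ordered by mean level; circles and triangles are replicates 1 and 2 of sgNT (blue) and sgCbfb (red), short lines are group means and the dotted line is the value of a gene with 0 reads. Cd47 is at the top with 6.32 to 6.62, and Pdcd1lg2 and Nt5e lie on the line of 0 reads in all 4 libraries.

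The ligand genes fell into clear tiers of abundance. Mean levels over the 4 libraries were 90.3 CPM for Cd47, 59.1 for Pvr, 42.5 for Nectin2, 30.8 for Lgals9, 5.93 for Cd274, 5.61 for Cd276, 1.53 for H2-T23 and 1.48 for Ulbp1. Comparing reads between genes assumes that their 3′ ends are captured alike, which these data do not measure. Cd47 (79.5 to 97.8 CPM) stood above Pvr (52.1 to 66.5 CPM) in every library, and Pvr stood above Nectin2 (31.8 to 49.6 CPM). Nectin2 and Lgals9 (29.2 to 33.6 CPM) overlapped in the sgNT libraries and were apart in the sgCbfb libraries. The neighbours Cd274 (4.50 to 7.68 CPM) and Cd276 (2.65 to 7.84 CPM) did not separate, and neither did H2-T23 (0.883 to 2.51 CPM) and Ulbp1 (0.300 to 3.45 CPM).

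The ligands of PD-1 come first. Cd274 (chr19:29367455-29388095, plus strand, GRCm38) stood at 2.63 and 2.34 log2 CPM in the sgNT libraries, from 19 and 15 reads, and at 3.05 and 2.71 in the sgCbfb libraries, from 30 and 19 reads. Both sgCbfb libraries were above both sgNT libraries, with sgNT replicate 1 and sgCbfb replicate 2 nearly level. The log2 fold change was 0.39 (SE 0.32, 95% interval -0.28 to 1.06, adjusted p = 0.635, limma), which allows a fold between 0.826 and 2.08, and no difference was detectable at this depth. With 1 library left out it ran from 0.22, without sgCbfb replicate 1, to 0.56, without sgCbfb replicate 2. Counting error alone, taken from the summed 34 and 49 reads, left a ratio of 1.37 with an exact interval of 0.865 to 2.18.

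Pdcd1lg2 (chr19:29410919-29471161) lies 22.8 kb downstream of Cd274 on the same strand. It had 0 reads in each of the 4 libraries and was not tested. A count of 0 in 6731308 sgNT reads allows a level of up to 0.446 CPM, and 0 in 7096971 sgCbfb reads allows up to 0.423 CPM. Over all 13828279 reads the limit was 0.217 CPM, below the level of Cd274 in every library. Such limits and the intervals on read ratios cover counting error only.

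Cd276 (chr9:58524298-58555437, minus strand) encodes B7-H3, a B7-family protein on many tumour cells. Its level was 1.69 and 2.43 log2 CPM in sgNT cells, from 9 and 16 reads, and 2.95 and 3.07 in sgCbfb cells, from 28 and 25 reads. The sgNT libraries differed more from each other than the sgCbfb libraries did, and the groups stayed apart. The log2 fold change of 0.95 (SE 0.35, 95% interval 0.24 to 1.67) missed the threshold at an adjusted p of 0.163 in limma. It was 0.59 without sgNT replicate 1 (adjusted p = 0.553) and 1.32 without sgNT replicate 2 (adjusted p = 0.0528), and in 0 of 12 alternative settings did Cd276 pass (adjusted p up to 0.952). The ratio of summed reads, 25 to 53, was 2.01 with an exact counting interval of 1.23 to 3.38.

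Lgals9 (chr11:78962974-78984946, minus strand) encodes galectin-9, a sugar-binding ligand of TIM-3. It held 5.09 and 4.92 log2 CPM in the sgNT libraries, from 114 and 99 reads, and 4.98 and 4.89 in the sgCbfb libraries, from 121 and 93 reads. This was the one tested ligand gene whose groups overlapped, with replicate 2 of each group below replicate 1. The fitted change was a log2 value of -0.07 (SE 0.15, adjusted p = 0.887, limma), and its 95% interval kept the fold between 0.766 and 1.19. Its sign turned to 0.017 when sgNT replicate 1 was left out.

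Cd47 (chr16:49800533-49915010, plus strand), the signal that restrains macrophages, was the most read of the 10 genes. It stood at 6.32 and 6.51 log2 CPM in sgNT cells, from 270 and 302 reads, and at 6.55 and 6.62 in sgCbfb cells, from 365 and 312 reads. The upper sgNT library nearly touched the lower sgCbfb library. The difference between group means was a log2 fold change of 0.17 (SE 0.10, 95% interval -0.03 to 0.38, adjusted p = 0.447, limma), which held the fold between 0.977 and 1.30, the narrowest range among the ligand genes. Without sgNT replicate 1 the value was 0.08, and without sgNT replicate 2 it was 0.26.

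Nt5e (chr9:88327197-88372092, plus strand) encodes CD73, the ectoenzyme that makes extracellular adenosine, an inhibitor of T cells. It was at 0 reads in all 4 libraries, with the same limits as Pdcd1lg2, and was not tested. The enzymes that supply or share its substrate, Entpd1 and Enpp1, were at 0 reads as well.

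The DNAM-1 and TIGIT ligands, Pvr and Nectin2, are neighbours on chromosome 7. Their gene bodies are 153 kb apart on the minus strand. Pvr (chr7:19903578-19921160) stood at 5.72 and 5.77 log2 CPM in sgNT cells, from 177 and 180 reads, and at 6.01 and 6.07 in sgCbfb cells, from 250 and 212 reads. Replicates lay close together in both groups, and the gap between groups was wider than the gap within either. Its log2 fold change was 0.30 (SE 0.11, 95% interval 0.06 to 0.53, adjusted p = 0.186, limma), and the read ratio was 1.23 with an exact counting interval of 1.07 to 1.41.

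Nectin2 (chr7:19716644-19750483) had the smallest p-value of the ligand genes. Its level was 5.02 and 5.34 log2 CPM in sgNT cells, from 108 and 133 reads, and 5.65 and 5.62 in sgCbfb cells, from 194 and 155 reads, or 5.18 ± 0.23 against 5.64 ± 0.02 (SD, n = 2). The sgCbfb libraries were nearly level with each other, and sgNT replicate 1 lay below the other sgNT library. The log2 fold change was 0.46 (SE 0.14, 95% interval 0.17 to 0.74, adjusted p = 0.0776, limma), with a read ratio of 1.37 and an exact counting interval of 1.16 to 1.63. In 4 of 12 alternative settings the adjusted p fell under 0.05, and over the 12 it ran from 0.0111 to 0.786. Leaving out sgNT replicate 1 reduced the log2 fold change to 0.30, and leaving out sgNT replicate 2 raised it to 0.62, the value with the adjusted p of 0.0111. With 1 sgNT library left, that p takes its spread from the sgCbfb libraries and the trend over genes, and the lone library is assumed to vary like them.

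The genes around Pvr and Nectin2 were read in the same way. Of 14 tested genes within 250 kb of Nectin2, Pvr among them, 9 had a positive log2 fold change, beside 57.0% of all tested genes, and 0 passed the threshold in either direction, beside 1.57% higher and 1.25% lower. Around Pvr it was 5 of 6, again with 0 past the threshold.

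**Figure D2:**
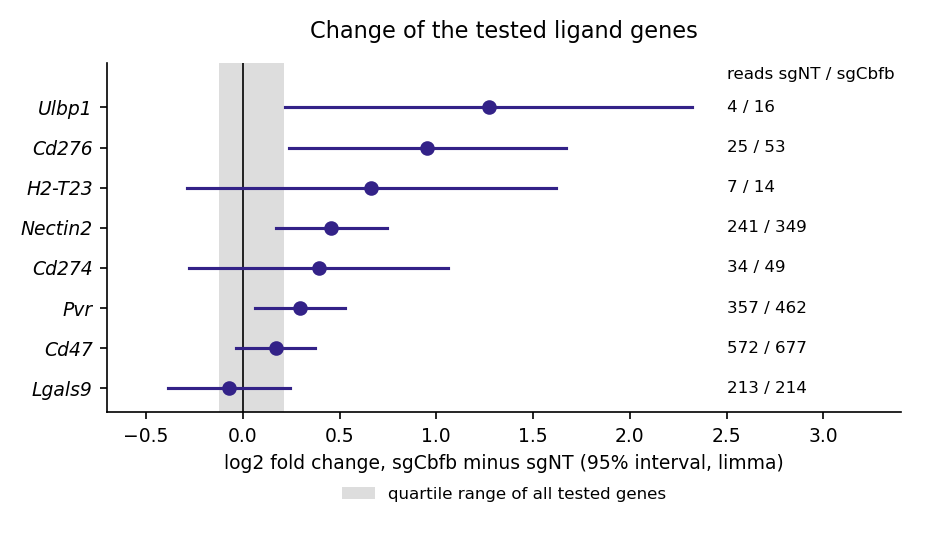
Log2 fold change of each tested ligand gene, sgCbfb minus sgNT (horizontal axis), with the 95% interval from limma as a bar, the summed reads of each group at the right, and the range between the quartiles of all 12207 tested genes (-0.12 to 0.21) in grey. Intervals of Nectin2, Pvr, Cd276 and Ulbp1 lie above 0 before adjustment over all genes, and the interval of Lgals9 is centred near 0.

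The ligands of the NK receptors NKG2D and NKG2A were the sparsest of the detected genes. Ulbp1 (chr10:7440362-7473638, minus strand) had 3 and 1 reads in the sgNT libraries and 5 and 11 in the sgCbfb libraries, or 0.55 and -0.19 against 0.89 and 2.01 on the deposited log2 CPM scale. The highest library, sgCbfb replicate 2, held more than the other 3 together. The fitted change was a log2 value of 1.27 (SE 0.51, 95% interval 0.22 to 2.32, adjusted p = 0.214, limma), a value that depends on the prior count in the deposited values at so few reads. The ratio of the summed 4 and 16 reads was 3.79, with an exact counting interval of 1.22 to 15.6. Leaving out sgCbfb replicate 2 lowered the log2 fold change to 0.71, and leaving out sgCbfb replicate 1 raised it to 1.83.

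H2-T23 (chr17:36029773-36032855, minus strand) had 3 and 4 sgNT reads beside 6 and 8 sgCbfb reads, or 0.55 and 0.83 against 1.08 and 1.63 log2 CPM. The groups were apart by a couple of reads. The difference of means was a log2 fold change of 0.66 (SE 0.46, 95% interval -0.29 to 1.62, adjusted p = 0.555, limma), and the read ratio of 1.9 had an exact counting interval of 0.716 to 5.55, so no difference was detectable at this depth. Without sgCbfb replicate 2 the value was 0.39. H2-T23 belongs to a class I family with near copies in the same cluster, so the assignment of its reads among copies is uncertain. Whether Ulbp1 shared reads with other NKG2D ligand genes was not tested.

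H2-T23 was the one ligand gene whose neighbourhood held genes past the threshold. Among 20 tested genes within 250 kb, 18 had a positive log2 fold change, beside 57.0% of all tested genes, and 2 rose, beside 1.57%. Ier3, an immediate early response gene, rose by 0.43 on the log2 scale (adjusted p = 2.07e-05, limma). Tubb5, a beta-tubulin with close paralogs, rose by 0.26 (adjusted p = 0.00151, limma). Each passed in 10 of 12 alternative settings and lost its call without the low-value filter (adjusted p = 0.327 for Ier3 and 1 for Tubb5) and without the mean-variance trend (0.311 and 0.465). The class I neighbours H2-T22 and H2-T10 did not pass.

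Antisense or other genes overlap 7 of the 10 ligand genes in GENCODE M21, all but Lgals9, Cd47 and Nt5e, and the sources used here do not give the use of strand in the counting. The overlap is of whole gene spans, and whether exons or 3′ ends overlap was not tested. Where they do and strand was not used, reads of such a pair could not be told apart.

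**Figure D3:**
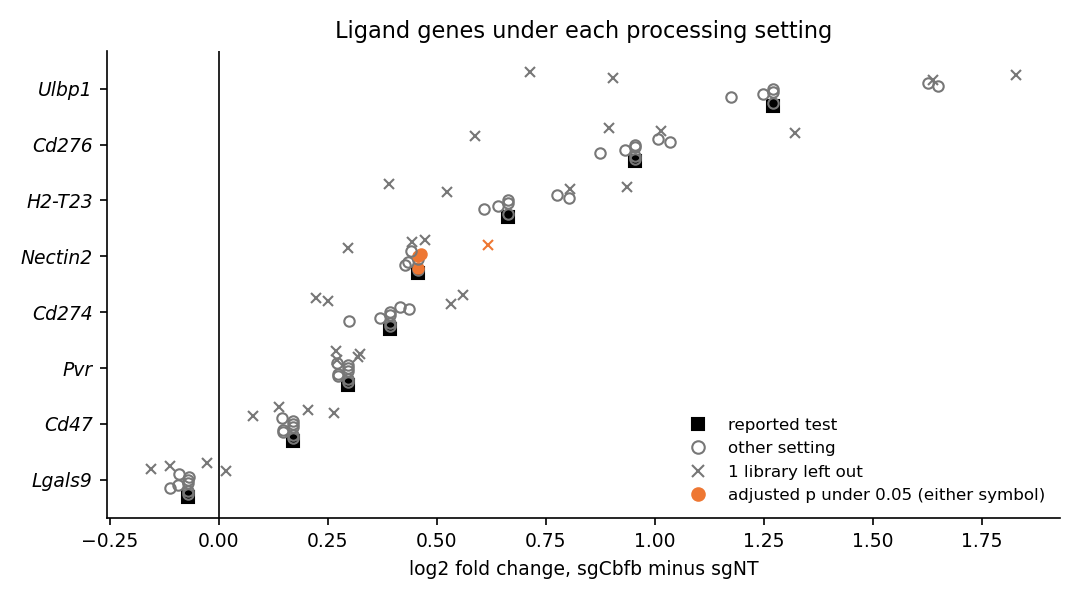
Log2 fold change of each tested ligand gene (horizontal axis) in the reported test (black square), in the other processing settings (open circles) and with 1 library left out (crosses), with orange marking an adjusted p under 0.05. Nectin2 is the one gene with orange symbols, 4 of them, and Lgals9 is the one gene with symbols on both sides of 0.

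Genes that work beside the 10 ligands were then read from lists of related families and pathways. The lists together held 63 genes, of which 59 were in the table and 35 were tested. Of these, 2 rose and 1 fell, beside 1.57% and 1.25% of all tested genes, and at an unadjusted p under 0.05 there were 9 higher and 1 lower, beside 9.67% and 5.23%. Positive log2 fold changes were found for 26 of the 35, beside 57.0% of all tested genes, with a median of 0.15 beside 0.039.

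Partners of H2-T23 in class I presentation included the first gene that rose. Tap1, a subunit of the transporter that carries peptides into the endoplasmic reticulum, had 21 and 23 sgNT reads beside 52 and 62 sgCbfb reads. Both sgCbfb libraries lay far above both sgNT libraries. Tap1 rose by 1.23 (log2, SE 0.27, adjusted p = 0.00764, limma), and this was past the threshold in 8 of 12 alternative settings, with adjusted p-values from 3.54e-04 to 0.575. Without sgCbfb replicate 2 it was 0.97 with an adjusted p of 0.271. Tap1 shares its locus with Psmb9 on the opposite strand.

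The other 6 partners had positive values short of the threshold, so that 7 of 7 were positive, beside 57.0% of all tested genes. The largest group of reads was that of B2m, the class I light chain, with 3406 and 3461 in sgNT beside 4385 and 3581 in sgCbfb cells, and a log2 fold change of 0.14 (adjusted p = 0.185, limma). H2-K1, a classical class I heavy chain, came nearest with 0.25 (SE 0.07, adjusted p = 0.0548, limma) and passed in 3 of 12 alternative settings. Tapbp had 0.15, and Erap1 had 0.27, or 0.13 without sgCbfb replicate 2 and 0.41 without sgCbfb replicate 1. Tap2 had 0.25, or 0.04 without sgCbfb replicate 2 and 0.46 without sgCbfb replicate 1. H2-D1, whose groups overlapped, had 0.09, and its sign turned to -0.0067 without sgNT replicate 2.

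The adenosine genes beside Nt5e included the gene with the largest increase among the lists. Adora1, an adenosine receptor that couples to inhibitory G proteins, had 17 and 20 sgNT reads beside 84 and 55 sgCbfb reads. It rose by 1.71 (log2, SE 0.26, adjusted p = 1.51e-04, limma), and passed in 10 of 12 alternative settings, with adjusted p-values from 3.19e-08 to 0.306. Its gene overlaps Mybph on the opposite strand. The other adenosine receptors of this list were scarce, Adora2a, the one better known on T cells, with 0 reads in every library and Adora2b with 0 to 2.

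Among the genes that remove adenosine or feed its precursors, Ada, adenosine deaminase, had 40 and 39 reads against 84 and 57 and a log2 fold change of 0.71 (adjusted p = 0.0782, limma), and passed in 3 of 12 alternative settings. Cd38, an NAD-consuming ectoenzyme, had 8 and 6 reads against 18 and 16 and a value of 1.03 (adjusted p = 0.174, limma). Adk and the transporter Slc29a1 had 0.22 and 0.11. The groups of Slc29a1 overlapped, and its sign turned to -0.0045 without sgCbfb replicate 1. Positive values were found for 5 of the 5 tested genes of this list, beside 57.0% of all tested genes, and 1 of the 5 passed, beside 1.57% higher past the threshold among all tested genes.

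The galectins beside Lgals9 held the one gene that fell. Lgals3, galectin-3, had 1601 and 1655 sgNT reads beside 1269 and 1001 sgCbfb reads, with no overlap. It fell by 0.60 (log2, SE 0.06, adjusted p = 6.89e-07, limma), and was past the threshold in 10 of 12 alternative settings, with adjusted p-values from 2.08e-14 to 0.205. Lgals1, at 5719 to 7462 reads per library, had 0.09 (adjusted p = 0.419, limma), with 0.03 to 0.14 over the alternatives. Lgals8 had 0.36 (adjusted p = 0.200, limma), or 0.15 without sgNT replicate 2 and 0.58 without sgNT replicate 1, the 1 of 12 alternative settings in which it passed.

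Genes that induce PD-L1 or hold it at the surface gave 0 of 11 past the threshold in limma, beside 1.57% higher and 1.25% lower of all tested genes. At an unadjusted p under 0.05 there were 2 higher, beside 9.67%, and voom with library totals placed 1, Irf1, past the threshold. Irf1, an interferon-induced activator of Cd274, had 442 and 340 sgNT reads beside 557 and 467 sgCbfb reads, with a log2 fold change of 0.33 (adjusted p = 0.0774, limma). Irf1 passed in 4 of 12 alternative settings (adjusted p from 5.15e-04 to 1), and its log2 fold change was 0.50 without sgNT replicate 1 and 0.15 without sgNT replicate 2. Stat3 had 0.30 (adjusted p = 0.114, limma). Other genes of this list moved with single libraries. Cmtm6, which protects PD-L1 from degradation, had 0.23 (adjusted p = 0.638, limma), but 0.05 without sgNT replicate 1 and 0.40 without sgNT replicate 2. Ifngr1, a receptor chain, had -0.23, with -0.30 to -0.15 over the alternatives, and Jak2 had 0.20, with 0.10 to 0.29. The signs of Ifngr2 (-0.07) and Jak1 (0.05) turned without sgCbfb replicate 1.

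In the remaining ligand families 8 genes were tested, and 0 passed the threshold in limma or voom or had an unadjusted p under 0.05. Among all tested genes the shares were 1.57% higher and 1.25% lower, or 9.67% and 5.23% unadjusted, and 0 of 8 is near them. Of 10 B7 and TNF-family costimulatory ligands, 6 had no read, Cd80 and Cd86 included, and the 1 that was tested, Tnfsf9, had 2 and 7 sgNT reads beside 2 and 1 sgCbfb reads (log2 fold change -0.84, adjusted p = 0.506, limma), which was -0.24 without sgNT replicate 2 and -1.44 without sgNT replicate 1. Nectin3, with 193 to 213 reads per library, had -0.08 (adjusted p = 0.812, limma), with -0.16 to -0.0009 over the alternatives. The further NKG2D ligand Raet1e, with 41 and 36 reads against 56 and 44, had 0.29 (adjusted p = 0.628, limma). Its gene span overlaps those of Raet1d and H60b on the same strand, so the assignment of reads among them is uncertain. Calr, the pro-phagocytic signal opposite to Cd47, had 0.001 (adjusted p = 0.995, limma), with -0.04 to 0.04 over the alternatives. Qpctl, the enzyme that modifies CD47 for SIRPα binding, had 0.24 (adjusted p = 0.802, limma), with 0.11, without sgCbfb replicate 2, to 0.38, without sgCbfb replicate 1. Vcam1, an adhesion ligand, had -0.04 (adjusted p = 0.891, limma), with -0.10 to 0.02 over the alternatives. The receptors that read the 10 ligands were near absent, with 6 of 9 at 0 reads and 2 to 6 summed reads per sgNT library and 3 to 4 per sgCbfb library, most of them from Havcr2, which encodes TIM-3.

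**Figure D4:**
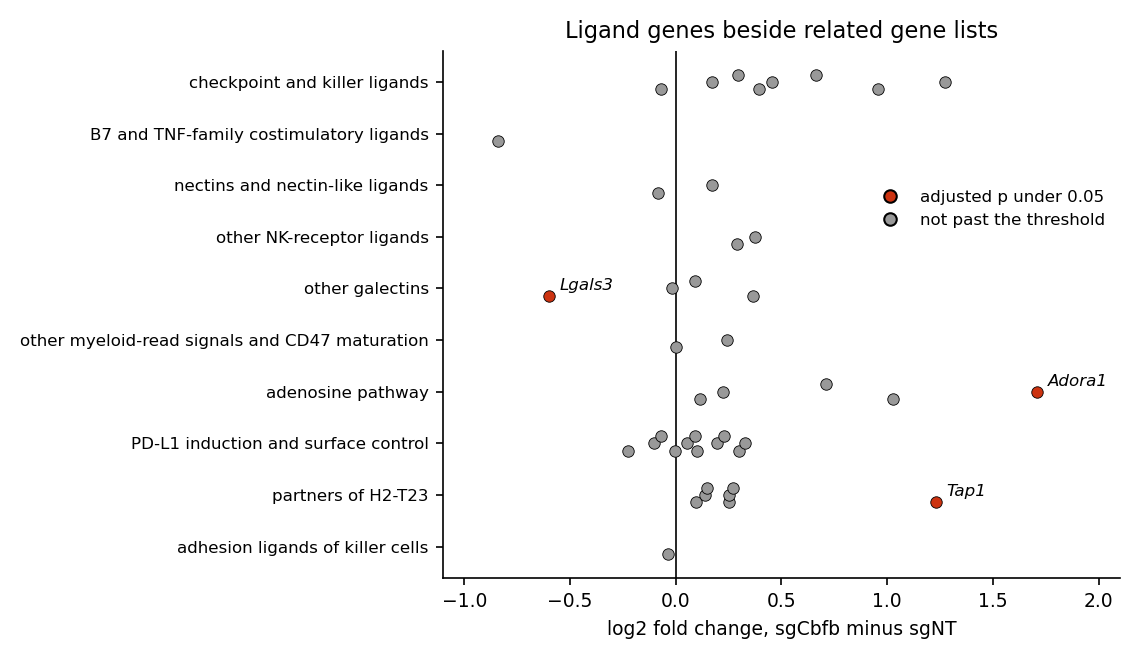
Log2 fold change (sgCbfb minus sgNT, horizontal axis) of every tested gene in the ligand set and in the related lists (1 row per list, vertical offsets only separate points); red points have an adjusted p under 0.05. The ligand row spans -0.07 to 1.27 with no red point, and Adora1, Tap1 and Lgals3 are the red points in the other rows.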

How the data were processed

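Libraries of MC38 cells (2 sgNT and 2 sgCbfb) were grouped by their labels. According to the submitters' processing notes, the authors used cutadapt 1.9, HISAT2 2.1.0 on mm10 and featureCounts 2.0.1, for which the study's methods name an earlier version. The authors deposited log2 CPM values scaled to library totals, with an implied prior count of 2, and a gene with 0 reads shares the value -0.79. The annotation and the handling of strand and multiply matching reads are not given in the sources used here. Reads were recovered from these values (within 0.1 of a whole number for at least 99.99% of values per library) and give the depth and the ratios with exact 95% intervals.

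Genes at or above 0 log2 CPM in at least 2 libraries (12207) were tested with limma 3.58.1 in R 4.3.3 (lmFit, eBayes with trend), two-sided, with Benjamini-Hochberg adjustment over all tested genes and a threshold of 0.05. The design was written for either scale, and no pseudocount was added. The test was tried on simulated data. The ligand genes and all lists were chosen with earlier results of these data known. Named were all 10 ligands, Cbfb, list genes past the threshold, and ranges or single values of the other list genes, some of which were picked after their values were seen. A gene of these lists is not reported here. Alternatives were no filter, a minimum of 5 CPM, quantile normalization, median centring, no trend, the replicate block, voom on recovered reads with library totals or median scaling, and each library left out. Positions are from GENCODE M21 on GRCm38 (25417 of 26322 symbols matched), and sequences are from RefSeq on GRCm38.p6. Python 3.11.15, pandas 2.3.3 and matplotlib 3.10.9 were used.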

Additional observations from a re-analysis of the deposited data

How the results depend on the processing

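At this depth, 5 of the 10 ligand genes had fewer than 10 reads in at least 1 library or none at all, and p-values rest on limma's shared spread. Where a library was left out, the lone library of its group was assumed to vary like the other group. The deviations of same-numbered libraries had a correlation of -0.0042 across the tested genes. With 2 libraries per group and counting error in low genes, this value cannot show whether replicates were handled in pairs.

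Of 94 alternative values for the tested ligand genes, 89 kept their direction and side of the threshold. The count of ligand genes higher past the threshold went from 0 to 1, Nectin2, with a minimum of 5 CPM (0.46, adjusted p = 0.0311), with the replicate block (0.46, adjusted p = 0.0284), in voom with library totals (0.46, adjusted p = 0.0493), and in leave-one-out from 0 to 1 (0.30 to 0.62). Lgals9 reversed to 0.017 without sgNT replicate 1, within a leave-one-out range of -0.16 to 0.017. The 4 values for Nectin2 and that for Lgals9 are the exceptions, and their cause was not tested.

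Cbfb kept -1.27 but lost its call without a filter (adjusted p = 0.290) and without the trend (0.115). Related-list genes that were higher numbered 2 in the reported test, 0 without a filter or trend, 5 at 5 CPM, with the replicate block and in voom with library totals, 1 with quantile normalization and 1 to 4 in leave-one-out, and the count of lower ones was 0 without the trend and 1 otherwise, Lgals3 except without a filter, where it was Nectin4. Over all genes the higher count of 192 became 2 without a filter, 300 at 5 CPM, 39 with quantile normalization, 0 without the trend (1461 genes in either direction at an unadjusted p under 0.05), 320 with the replicate block and 61 to 234 in leave-one-out. The lower count of 153 became 53, 44 and 0 without a filter, with quantile normalization and without the trend, and 86 to 161 in leave-one-out, in limma with Benjamini-Hochberg adjustment throughout. Nectin4 had 1 and 1 sgNT reads beside 0 and 0 sgCbfb reads, and it was under the filter of the reported test. Without a filter more genes were tested, but the cause of the shifts, those without a filter included, was not tested.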
